A study of Rattus norvegicus with 6 samples.

Results

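The collagens and other proteins of the extracellular matrix were described in rat gastrocnemius, a leg muscle, after a 24 h infusion of vehicle or of olanzapine, an atypical antipsychotic drug. The members were chosen by gene symbol: every collagen chain, laminin chain, matrix metalloproteinase (Mmp) and tissue inhibitor of metalloproteinases (Timp) in the deposited table, together with fibronectin (FN1), Sparc, decorin (Dcn), lumican (Lum), biglycan (Bgn), periostin (Postn), Nid1, Nid2, Lox and Ctgf. This gave 91 of the 26406 genes listed. Of these, 45 had a mean of at least 1 FPKM (fragments mapped to a gene, scaled to transcript length and sequencing depth) over the 6 rats and were tested, 36 lay above 0 in some rat but under that mean, and 10 were listed at 0 in every rat.

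Around every muscle fiber lies a basement membrane, a sheet built of laminin and collagen IV networks that nidogen joins together. Outside it is an interstitial matrix in which collagen I and collagen III form the fibrils, small leucine-rich proteoglycans such as decorin coat them, and collagen VI links them to the basement membrane. Fibroblasts make most of the interstitial chains, metalloproteinases degrade the matrix, and TIMPs inhibit the metalloproteinases.

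All animals were male Sprague Dawley rats (Crl:SD), housed singly and fed a standard chow. Vehicle was infused into rats 3, 9 and 11 at the same rate and volume as the drug. Olanzapine was infused into rats 4, 10 and 12, with a loading dose of 1 mg per 100 g of body weight in the first 0.5 h, followed by 0.04 mg per 100 g each hour for 23.5 h. Each rat gave 1 library of single-end reads of 50 cycles, so a group held 3 animals.

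The libraries read as skeletal muscle: Acta1, skeletal muscle alpha-actin, lay between 32745 and 51256 FPKM, and Ckm, muscle creatine kinase, between 17904 and 29986 FPKM. Of the 10285 genes tested with limma on log2(FPKM + 1), an adjusted p under 0.05 was reached by 47 that fell and 5 that rose. Over all tested genes the median log2 fold change was -0.11, or 0.01 after scaling by median-ratio size factors, so values of the members are given beside that median. The steps between the lowest FPKM put the depth of the other rats at 0.441 to 0.917 of that of vehicle rat 3, and the vehicle rats had the order 3, 9, 11 from deepest to shallowest. For the genes described here, vehicle rats 3 and 11 stood far apart from each other, and for the main members the values are also given without either of them.

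Ctgf, connective tissue growth factor (now named Ccn2), fell in the olanzapine rats. It is a secreted matricellular protein of the CCN family, induced by TGF-beta and by YAP and TAZ, the coactivators of the TEAD transcription factors. In Rn5, the build of the deposited table, the gene lies at chr1:23331546-23334660. Its RefSeq promoter in the GRCr8 assembly (chr1:22624565-22624864, minus strand, 250 bases before to 50 bases after the start) is shown because Ctgf was the single member that passed the test, with the TEAD motif GGAATG in capitals.

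Ctgf promoter: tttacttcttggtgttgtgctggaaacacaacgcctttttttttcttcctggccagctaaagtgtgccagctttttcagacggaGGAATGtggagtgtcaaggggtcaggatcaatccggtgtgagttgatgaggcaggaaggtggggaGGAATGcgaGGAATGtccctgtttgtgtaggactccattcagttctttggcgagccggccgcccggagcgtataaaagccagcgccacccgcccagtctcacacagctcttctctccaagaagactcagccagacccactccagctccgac

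The motif stood 166, 101 and 92 bases before the start of Ctgf. It was searched on both strands, and no other motif was. Of 33469 rat promoters of the same length, 14.2% held at least 1 match and 0.0956% held at least 3. Of the 69 members with a promoter in that table, 12 held at least 1 match, and Ctgf alone held at least 3. These matches describe the letters and not a bound site.

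Ctgf measured 29.4, 25.1 and 24.1 FPKM in vehicle rats 3, 9 and 11, and 10.6, 6.25 and 6.58 FPKM in olanzapine rats 4, 10 and 12. All olanzapine values were under the lowest vehicle value. The mean was 26.2 ± 2.82 FPKM under vehicle and 7.81 ± 2.42 FPKM under olanzapine (SD, n = 3 each), 3.35-fold lower. This was a log2 fold change of -1.65 ± 0.22 (standard error) with a 95% interval from -2.15 to -1.16 and a limma adjusted p of 0.0233. In bulk muscle, fewer cells of a type and less RNA per cell cannot be told apart.

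With each rat left out in turn, the log2 fold change of Ctgf stayed between -1.87 and -1.53. The limma adjusted p was 0.00610 without olanzapine rat 4. It missed the threshold without any of the others, at 0.0806 without vehicle rat 3, 0.0553 without vehicle rat 9, 0.0607 without vehicle rat 11, 0.0541 without olanzapine rat 10 and 0.112 without olanzapine rat 12. It was 0.0528 when low genes were not filtered out. Scaling by median-ratio size factors gave a log2 fold change of -1.51 and a limma adjusted p of 0.0268.

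Ctgf was the only 1 of the 45 tested members to pass, where 0.457% of all tested genes were called lower and 0.506% in either direction. No member was called higher by limma, and none lay above 0 at an unadjusted p under 0.05. At that unadjusted threshold Ctgf was again the only member, 1 of 45, where 13.2% of all tested genes passed. It was also the only tested member whose groups did not overlap, while 14.6% of all tested genes had groups without overlap that were lower and 5.12% had such groups that were higher in the olanzapine rats. The next lowest limma adjusted p among the members was 0.381, for Lamb1.

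The other members mostly lay below 0 without passing. The log2 fold change was below 0 in 39 of the 45 tested members, where 64.3% of all tested genes were below 0, and above 0 in 6: Timp1, Timp2, Timp4, Mmp14, Mmp23 and Nid2. The median over the tested members was -0.37, a difference of -0.26 from the median of all tested genes. With median-ratio size factors 36 of the 45 were below 0, and the median was -0.22 against 0.01 for all genes tested.

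**Figure D1:**
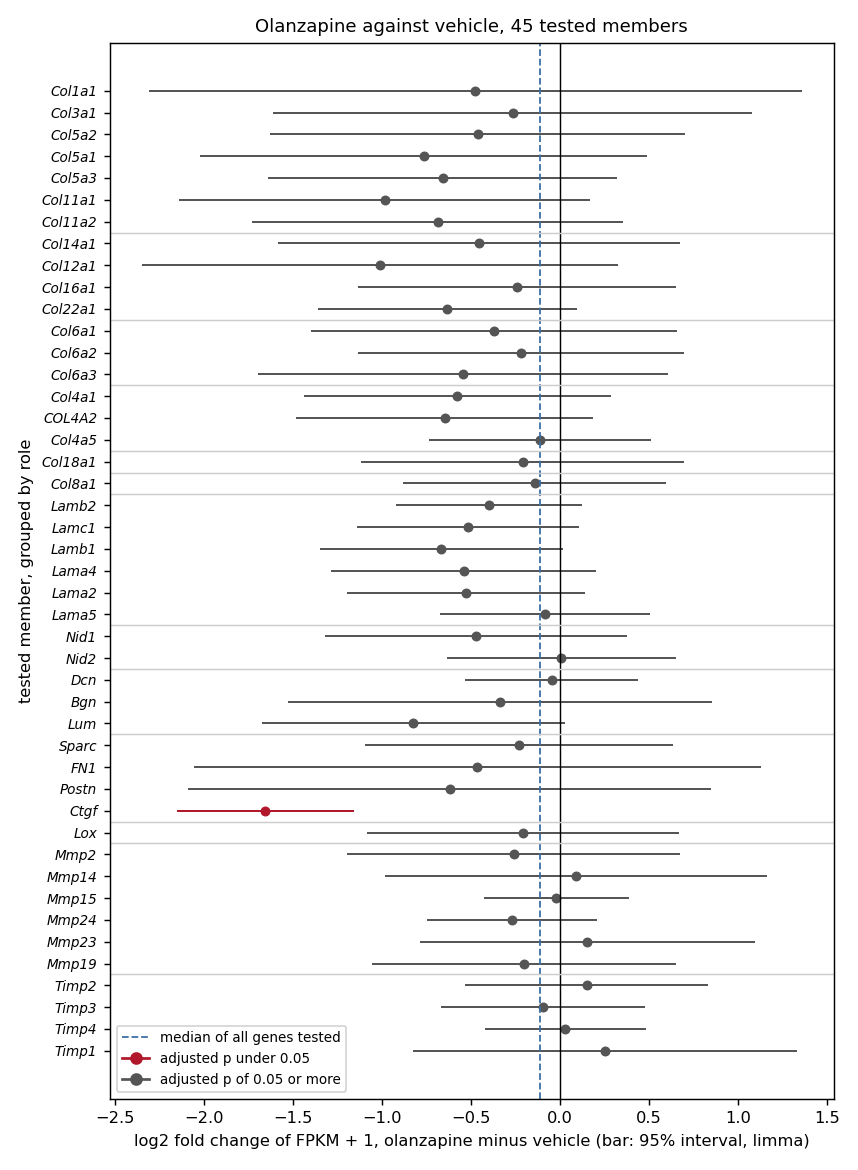
The plot gives the log2 fold change of FPKM + 1, olanzapine minus vehicle, of each of the 45 tested members, grouped by role, with its 95% interval from limma and, as a dashed line, the median of all genes tested (-0.11). The interval of Ctgf runs from -2.15 to -1.16, and that of every other member includes 0.

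The members varied widely among the vehicle rats and little among the olanzapine rats. The median SD of log2(FPKM + 1) over the tested members was 0.82 in the vehicle rats and 0.24 in the olanzapine rats, where the median over all tested genes was 0.24 in both groups. The highest vehicle rat exceeded the lowest by a median of 3.66-fold, against 1.45-fold over all tested genes. In the olanzapine rats the same ratio was 1.45-fold for the members and 1.47-fold for all tested genes. The SD was larger in the vehicle group in 39 of the 45 members, where it was so in 50.2% of all tested genes.

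Vehicle rat 3 was the lowest vehicle rat in 44 of the 45 tested members, with Ctgf the exception, where 27.9% of all tested genes had rat 3 lowest. Vehicle rat 11 was the highest vehicle rat in 38 of the 45, against 37.5% of all tested genes. The order 3, 9, 11 held in the same number of members, 38, against 17.1%, and in 38 with median-ratio size factors and 36 with every rat scaled to the same total. The 7 members without that order were Ctgf, Timp3, Timp4, Lama5, Mmp15, Mmp24 and Col18a1.

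In most members the olanzapine rats lay within this spread. All 3 were inside the vehicle range in 28 of the 45 members, against 15.3% of all tested genes, and all 3 lay below both vehicle rats 9 and 11 in 30 members, against 22.1%. The median over the members of the deviation from the 6-rat mean, on the log2 scale, was -0.69 in vehicle rat 3, 0.35 in vehicle rat 9 and 0.93 in vehicle rat 11. In olanzapine rats 4, 10 and 12 it was -0.00, -0.24 and -0.26. The depth of the vehicle libraries ran in the reverse order of these levels. In olanzapine rats 4, 10 and 12 the depth was 0.917, 0.904 and 0.735 of that of vehicle rat 3, in the same order as their levels. The part of depth in these levels was not tested.

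**Figure D2:**
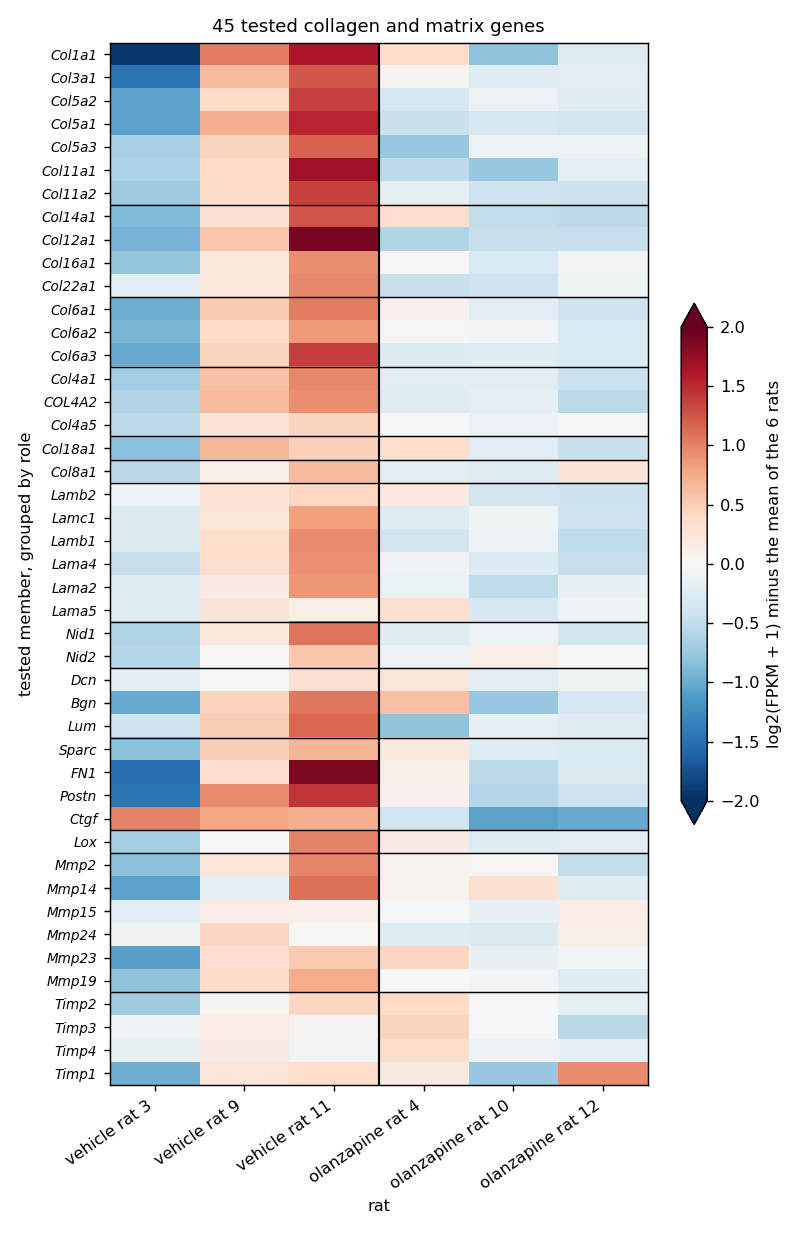
The heat map gives log2(FPKM + 1) minus the mean of the 6 rats for the 45 tested members, with genes in rows grouped by role and rats in columns, blue below and red above the mean. The column of vehicle rat 3 is the lowest of the vehicle columns in 44 of 45 rows, that of vehicle rat 11 is the highest of them in 38, and the row of Ctgf departs from both.

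The fibrillar collagens, which form the load-bearing fibrils, had the highest summed FPKM of the collagen classes. Their 11 chains summed to 115, 659 and 1021 FPKM in vehicle rats 3, 9 and 11, and to 419.9, 261 and 311 FPKM in olanzapine rats 4, 10 and 12. The means were 598 ± 456 and 331 ± 81.2 FPKM (SD, n = 3 each), so the means differed by less than the SD of the vehicle rats. All 7 tested chains lay below 0, between -0.98 and -0.27 on the log2 scale, and none passed the test, with limma adjusted p between 0.430 and 0.853.

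Col1a1, the alpha 1 chain of collagen I, measured 46.8, 369.6 and 559 FPKM in vehicle rats 3, 9 and 11, and 232, 103 and 151 FPKM in olanzapine rats 4, 10 and 12. The vehicle rats spanned 11.9-fold and enclosed all 3 olanzapine rats. The log2 fold change was -0.47 with a 95% interval from -2.30 to 1.35, and it was -1.56 without vehicle rat 3 and 0.22 without vehicle rat 11 (limma).

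Col3a1, the chain of collagen III, followed at 58.8, 256 and 393 FPKM under vehicle and 172, 140.05 and 142 FPKM under olanzapine. Its olanzapine values were within 1.23-fold of each other and again inside the vehicle range. Its log2 fold change of -0.27 was -1.07 without vehicle rat 3 and 0.29 without vehicle rat 11. Among the minor fibrillar chains, which form mixed fibrils with collagens I and II, Col5a1 was at 2.59, 11.3 and 20.8 FPKM under vehicle and 4.54, 5.01 and 4.89 FPKM under olanzapine. Its log2 fold change of -0.77 was -1.50 without vehicle rat 3 and -0.20 without vehicle rat 11. Col11a1 was at 0.532, 2.09 and 6.49 FPKM and at 0.635, 0.381 and 1.03 FPKM, with a log2 fold change of -0.98, and Col11a2 spanned 15.6-fold among the vehicle rats. These are low levels next to Col1a1. Col5a3 had a log2 fold change of -0.66, which was -1.14 without vehicle rat 3 and -0.23 without vehicle rat 11. Col11a1, Col11a2 and Col22a1 did not reach a mean of 1 FPKM without vehicle rat 11 and so had no value there. Col1a2, whose chain pairs with that of Col1a1, was listed at 0 in all 6 rats, as were 9 other members. A listed 0 can be a failed estimate and does not show that the gene was silent, so the fibrillar sums hold nothing for Col1a2.

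**Figure D3:**
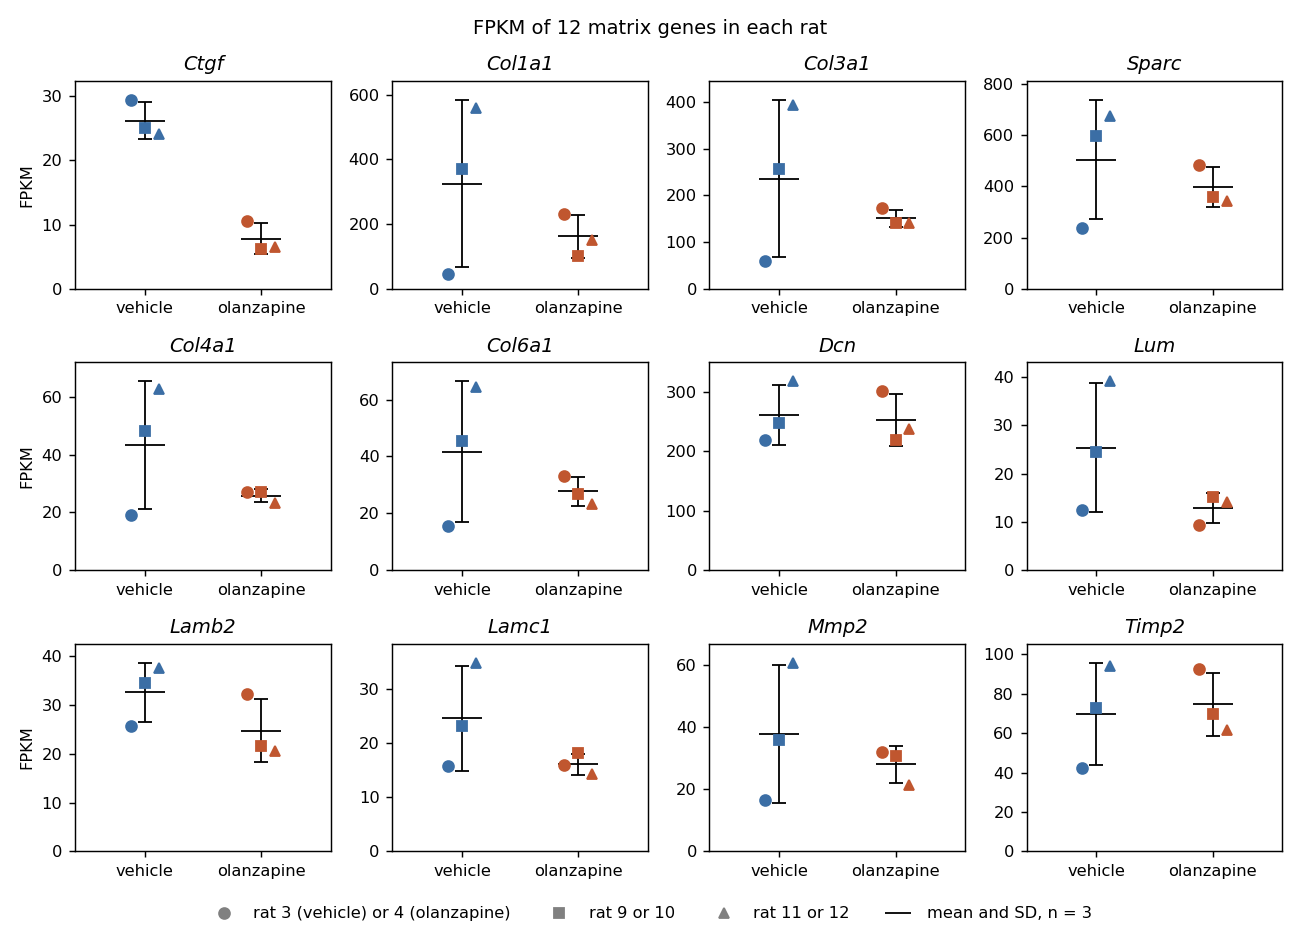
The panels give the FPKM in each rat, from 0, for 12 of the named members, with vehicle rats in blue, olanzapine rats in orange, and the mean and SD of 3 rats as bars. Ctgf separates the groups, at 24.1 to 29.4 against 6.25 to 10.6 FPKM, while the vehicle values of Col1a1 (46.8 to 559 FPKM) enclose those of all olanzapine rats.

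The FACIT collagens, chains that sit on the surface of fibrils, summed to 17.7 ± 14.6 FPKM under vehicle and 8.44 ± 1.81 FPKM under olanzapine (SD, n = 3 each). All 4 tested chains lay below 0 and none passed. Col12a1, a chain abundant in tendon and fascia, was at 0.931, 4.40 and 12.7 FPKM under vehicle and 1.43, 1.68 and 1.67 FPKM under olanzapine. Its olanzapine rats differed by 1.178-fold and its vehicle rats by 13.6-fold, with all olanzapine values inside the vehicle range. This was a log2 fold change of -1.01 ± 0.58 (standard error) and a limma adjusted p of 0.475. It was -1.73 without vehicle rat 3 and -0.32 without vehicle rat 11.

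Col14a1, which binds decorin on fibrils, was at 2.29, 6.55 and 13.6 FPKM under vehicle and 6.71, 3.31 and 3.23 FPKM under olanzapine. Col22a1, a collagen of the myotendinous junction, was at 0.711, 1.30 and 2.89 FPKM and at 0.464, 0.497 and 0.873 FPKM, with a log2 fold change of -0.63. Only the olanzapine rat 12 value of Col22a1 lay within the vehicle range.

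Collagen VI, the beaded microfilament of the fiber surface, summed to 89.5 ± 52.8 FPKM under vehicle and 61.7 ± 8.37 FPKM under olanzapine (SD, n = 3 each). Its Col6a1 and Col6a2 chains, which assemble with another alpha chain into 1 molecule, kept a nearly constant ratio. Col6a1 was at 15.4, 45.3 and 64.4 FPKM under vehicle and 33.2, 26.8 and 23.2 FPKM under olanzapine. Col6a2 was at 16.2, 42.0 and 58.0 FPKM and at 32.3, 30.3 and 25.5 FPKM. Across the 6 rats the ratio of Col6a1 to Col6a2 stayed between 0.882 and 1.11 while the levels varied 4.19-fold and 3.57-fold. Their log2 fold changes were -0.37 and -0.22, and neither passed. The ratio of Col6a1 to Col6a3, the other chain, was less steady, at 4.21 to 7.99. A steady ratio was not particular to chains that assemble, as most tested members shared the vehicle order. Mmp2, no chain of collagen VI, kept to the levels of Col6a2 about as closely. It was at 16.6, 35.8 and 60.8 FPKM under vehicle and 32.0, 30.7 and 21.3 FPKM under olanzapine.

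Col8a1, a network collagen of vessel walls, and Col18a1, the basement membrane collagen that yields endostatin, were low. The former was at 1.46 ± 0.963 FPKM under vehicle and 1.14 ± 0.443 FPKM under olanzapine. Col18a1 was at 5.30 ± 2.91 and 4.11 ± 1.53 FPKM (SD, n = 3 each). Their log2 fold changes of -0.14 and -0.21 were within the spread between rats.

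The 6 chains of collagen IV, the scaffold of the basement membrane, summed to 32.5, 80.2 and 101 FPKM in vehicle rats 3, 9 and 11, and to 44.8, 45.9 and 38.4 FPKM in olanzapine rats 4, 10 and 12. The chains Col4a1 and COL4A2, which form the main heterotrimer, are read in opposite directions from neighboring starts. In Rn5 COL4A2 lies at chr16:82853205-82987193 and Col4a1 at chr16:82987856-83097435, with 662 bases between them. The stretch around both RefSeq starts in GRCr8 (chr16:84885471-84885646, plus strand, the strand of Col4a1) is shown because the pair had the steadiest ratio of the 10 pairs compared, with the 76 bases between the starts in capitals. These 10 pairs were chosen by hand and not drawn from all pairs of members.

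Col4a2 to Col4a1 start region: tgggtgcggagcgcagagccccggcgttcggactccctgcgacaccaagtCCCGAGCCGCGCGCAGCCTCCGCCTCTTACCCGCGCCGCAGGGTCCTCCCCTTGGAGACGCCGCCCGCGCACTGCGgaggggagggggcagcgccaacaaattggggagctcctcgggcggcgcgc

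G and C made up 75% of this stretch. Col4a1 was at 19.2, 48.1 and 62.5 FPKM under vehicle and 27.1, 26.9 and 23.2 FPKM under olanzapine. COL4A2 was at 10.9, 27.5 and 33.5 FPKM and at 14.2, 15.1 and 11.5 FPKM. Both had vehicle rat 3 lowest and vehicle rats 9 and 11 above all olanzapine rats. The ratio of Col4a1 to COL4A2 was 1.75 to 2.02 across the 6 rats, while the levels varied 3.25-fold and 3.06-fold. Their log2 fold changes were -0.58 and -0.65, with limma adjusted p of 0.513 and 0.466. Without vehicle rat 3 they were -1.06 and -1.11, with adjusted p of 0.111 and 0.107, and without vehicle rat 11 they were -0.24 and -0.35.

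**Figure D4:**
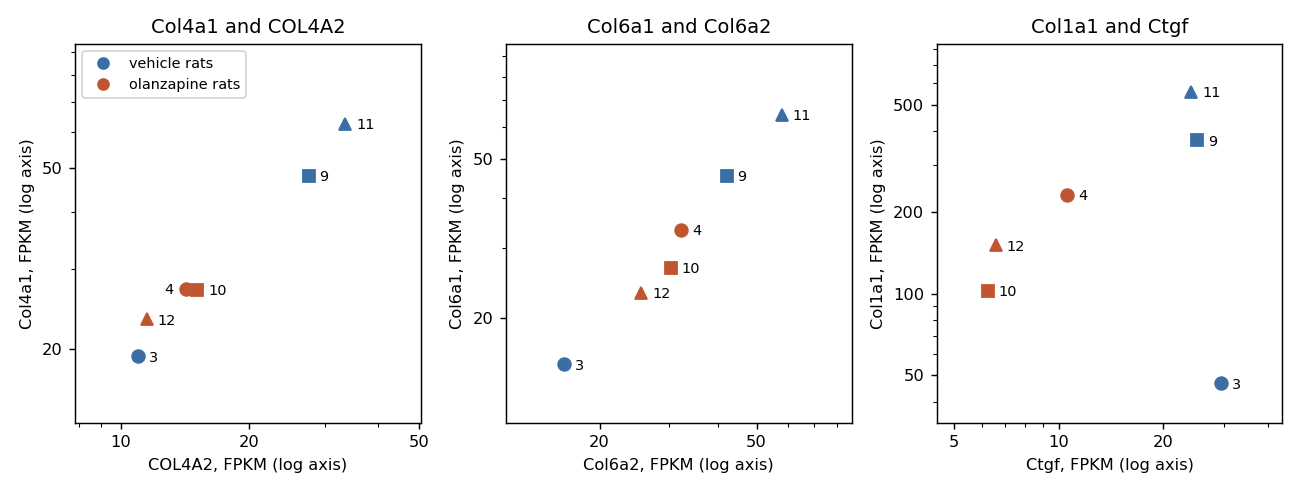
The panels set the FPKM of 2 members against each other in the 6 rats, on log axes, with the rat numbers beside the points, vehicle in blue and olanzapine in orange. Col4a1 with COL4A2 and Col6a1 with Col6a2 fall along a line, whereas for Col1a1 with Ctgf vehicle rat 3 stands apart from the other 5 rats and joins the highest Ctgf with the lowest Col1a1.

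The laminins, cross-shaped trimers to which muscle cells attach, summed to 79.8 ± 25.8 FPKM under vehicle and 55.0 ± 8.29 FPKM under olanzapine (SD, n = 3 each). All 6 tested chains lay below 0, between -0.67 and -0.08, and none passed. Lamb2, the beta chain enriched at the neuromuscular junction, was at 25.8, 34.5 and 37.5 FPKM under vehicle and 32.1, 21.5 and 20.5 FPKM under olanzapine. Lamc1, the gamma chain of most laminins, was at 15.8, 23.2 and 34.97 FPKM and at 16.1, 18.1 and 14.3 FPKM. In Lamc1 only vehicle rat 3 overlapped the olanzapine rats.

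Lamb1, the other main beta chain, was at 5.08, 8.43 and 13.2 FPKM under vehicle and 4.74, 5.82 and 4.19 FPKM under olanzapine. Its log2 fold change of -0.67 had a standard error of 0.30, and it was -0.98 without vehicle rat 3 and -0.36 without vehicle rat 11. For Lamc1 the change of -0.52 was then -0.79 and -0.24. The ratio of Lamb1 to Lamc1 stayed between 0.294 and 0.378. Among the nidogens, Nid1 was at 14.3 ± 8.72 and 8.91 ± 0.847 FPKM and Nid2 at 3.76 ± 1.796 and 3.57 ± 0.417 FPKM (SD, n = 3 each). The log2 fold change of Nid1 was -0.47, with -0.89 and -0.04 without vehicle rats 3 and 11. That of Nid2 was 0.01, with -0.28 and 0.28 without the same rats. It was also below 0 with a pseudocount of 10 and with every rat scaled to the same total.

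Sparc, a collagen-binding glycoprotein, had the highest mean of all members. It was at 238, 598 and 675 FPKM under vehicle and 485, 359 and 343 FPKM under olanzapine, which all lay between vehicle rats 3 and 9. FN1, fibronectin, which binds integrins and collagen, was at 5.23, 21.3 and 63.2 FPKM and at 18.4, 11.2 and 13.4 FPKM, a vehicle span of 12.1-fold. Their log2 fold changes were -0.23 and -0.46, and without vehicle rat 3 they were -0.70 and -1.33. Without vehicle rat 11 they were 0.05 and 0.35.

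The ratio of Col1a1 to Ctgf was 1.59 in vehicle rat 3 and between 14.7 and 23.2 in the other 5 rats, so its range rested on vehicle rat 3. Ctgf varied 1.22-fold among the vehicle rats, the second smallest such ratio of the tested members after Timp3 at 1.177-fold.

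Decorin and lumican, small leucine-rich proteoglycans that regulate fibril diameter, differed in how much they varied. Dcn was at 219.9, 247 and 318 FPKM under vehicle and at 302, 219 and 237 FPKM under olanzapine. Its groups overlapped fully, with a log2 fold change of -0.05 (95% interval -0.53 to 0.43) that became 0.11 with median-ratio size factors. Lum was at 12.5, 24.5 and 39.1 FPKM and at 9.29, 15.1 and 14.1 FPKM. Only vehicle rat 3 overlapped the olanzapine rats, and the log2 fold change of -0.82 had a standard error of 0.37 and a limma adjusted p of 0.386. It was -1.24 without vehicle rat 3 and -0.45 without vehicle rat 11. Bgn, a proteoglycan of the same family, was at 40.6 ± 25.2 and 29.4 ± 15.0 FPKM (SD, n = 3 each). Lox, lysyl oxidase, which starts the crosslinking of collagen, was at 2.06, 3.95 and 8.83 FPKM under vehicle and 4.54, 3.13 and 3.25 FPKM under olanzapine.

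Of 23 metalloproteinases 6 were tested, with 4 below 0 and 2 above, a median log2 fold change of -0.11 and no call. Mmp2, gelatinase A, was at 16.6, 35.8 and 60.8 FPKM under vehicle and 32.0, 30.7 and 21.3 FPKM under olanzapine. Mmp14, the membrane-bound activator of pro-Mmp2, was at 5.71, 11.3 and 29.1 FPKM and at 13.7, 16.2 and 10.9 FPKM. Both had the vehicle order of the collagens and all olanzapine rats inside the vehicle range, and their log2 fold changes were -0.26 and 0.09. Without vehicle rat 3 they were -0.74 and -0.42, and without vehicle rat 11 they were 0.17 and 0.67. That of Mmp14 was also below 0 with a pseudocount of 10.

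All 4 TIMPs were tested and none passed, with a median log2 fold change of 0.09. Timp2, which inhibits Mmp2 and takes part in its activation, was at 42.4, 72.7 and 94.4 FPKM under vehicle and 92.6, 69.9 and 61.8 FPKM under olanzapine. The log2 fold change of Timp2 was 0.15, with -0.17 without vehicle rat 3 and 0.40 without vehicle rat 11. Timp3, which is bound to the matrix, was at 27.9, 32.9 and 30.8 FPKM and at 40.4, 28.7 and 19.7 FPKM. Timp3 was steady among the vehicle rats and spanned 2.05-fold among the olanzapine rats. Its log2 fold change of -0.09 became 0.05 with median-ratio size factors. The ratio of Mmp2 to Timp2 was highest in vehicle rat 11, at 0.644, and ran from 0.344 to 0.493 in the other rats.

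The direction of the whole group rested on which vehicle rats were in the fit. Without vehicle rat 3 all 45 tested members lay below 0, where 61.1% of all tested genes did, with a median log2 fold change of -0.79. Then 31 of the 45 were lower at an unadjusted p under 0.05, where 8.56% of all tested genes were, but none had a limma adjusted p under 0.05, the lowest being 0.0806 for Ctgf and 0.0931 for Postn, an adhesion protein of dense connective tissue. Without vehicle rat 11, 18 of 42 tested members lay below 0, where 63.5% of all tested genes did, and the median was 0.04. At an unadjusted p under 0.05, 1 of these 42 was lower, where 6.09% of all tested genes were. Without vehicle rat 9, 36 of 45 lay below 0, where 65.5% did, and 1 was lower at that p, where 9.41% were. The median was -0.21 without vehicle rat 9, and without an olanzapine rat it was between -0.44 and -0.31.

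**Figure D5:**
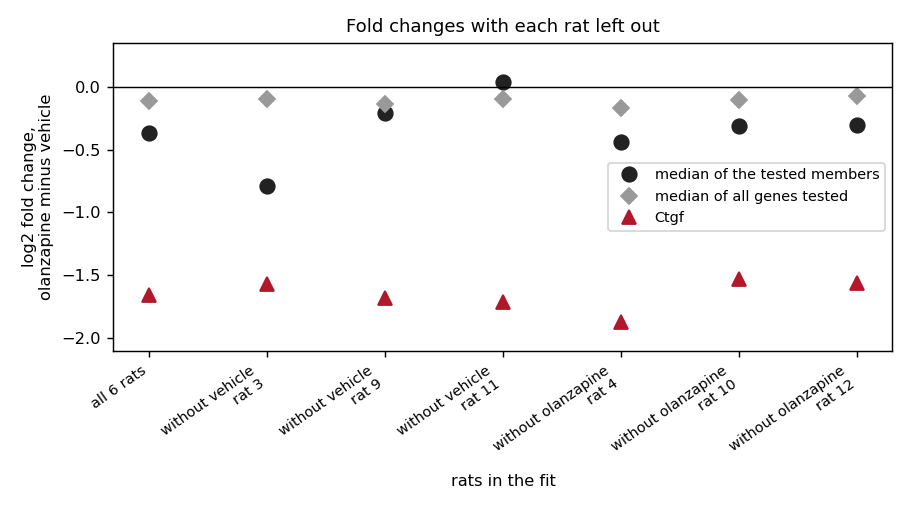
The plot gives the median log2 fold change of the tested members, that of all genes tested and that of Ctgf, with all 6 rats and with each rat left out. The median of the members ran from -0.79 without vehicle rat 3 to 0.04 without vehicle rat 11, while Ctgf stayed between -1.87 and -1.53.

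A Poisson likelihood ratio test on FPKM summed per group, which has no term for the spread between rats, called 12 members lower and 0 higher, where it called 4.0% of all tested genes lower and 3.93% higher. The 12 were Ctgf, Col1a1, Col3a1, Col5a1, Col12a1, Col4a1, COL4A2, Col6a1, Lum, Sparc, FN1 and Postn. In all of these except Ctgf and Lum, the vehicle rats enclosed every olanzapine rat. Postn, named after its values were seen, was at 5.35, 32.3 and 45.6 FPKM under vehicle and 17.3, 10.5 and 11.9 FPKM under olanzapine.

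The 36 members above 0 that were not tested, which include 10 metalloproteinases, had means between 0.00352 and 0.937 FPKM. Groups did not overlap in Col7a1 and Col25a1, among others, which were named after their values were seen. Col7a1, the anchoring fibril collagen of skin, was at 0.330, 0.312 and 0.123 FPKM under vehicle and 0.405, 0.745 and 1.37 FPKM under olanzapine, with every olanzapine rat higher. Col25a1, a transmembrane collagen, was at 0.133, 0.104 and 0.307 FPKM and at 0.0730, 0 and 0 FPKM. With no filter on low values neither passed.

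Genes that build or read the matrix outside the members were taken from 4 lists, whose counts are to be read beside the 64.3% of all tested genes that lay below 0 and the 13.2% with an unadjusted p under 0.05. Of 25 processing enzymes of collagen 20 were tested, 18 of them below 0 with a median of -0.28. None passed in limma, 3 had an unadjusted p under 0.05, and 2 were called lower by the Poisson test. These were Serpinh1, the chaperone of procollagen, and Sparcl1, a matricellular relative of Sparc that is no enzyme. The largest changes were those of Loxl1, an elastin crosslinking enzyme, with a log2 fold change of -0.93 (-1.31 without vehicle rat 3 and -0.57 without vehicle rat 11), and Plod2, the lysyl hydroxylase of collagen telopeptides. Plod2 was at 2.42, 2.58 and 2.99 FPKM under vehicle and 1.13, 1.399 and 1.29 FPKM under olanzapine. Its groups did not overlap, and its change of -0.69 on the log2 scale had a limma adjusted p of 0.191.

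Of 30 genes of elastic fibers, proteoglycans and other matricellular proteins, 24 were tested, 20 of them below 0 with a median of -0.35. None passed in limma, 2 had an unadjusted p under 0.05, and the Poisson test called 5 lower, Comp, Fbn1, Fmod, Hspg2 and Thbs4. Comp, cartilage oligomeric matrix protein, was at 1.12, 7.45 and 11.5 FPKM under vehicle and 1.24, 0.141 and 0.219 FPKM under olanzapine, with a log2 fold change of -2.06 and a limma adjusted p of 0.226. Without vehicle rat 3 Comp passed, with a log2 fold change of -2.82 and a limma adjusted p of 0.0328. Fbn1, fibrillin 1, had a log2 fold change of -1.003, which was -1.67 without vehicle rat 3 and -0.28 without vehicle rat 11.

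Of 23 genes of the TGF-beta pathway 21 were tested, 16 of them below 0 with a median of -0.21. None passed in limma, and Cyr61 was the only 1 at an unadjusted p under 0.05 and by the Poisson test. Cyr61, a CCN protein like Ctgf, was at 14.2, 45.7 and 27.5 FPKM under vehicle and 5.84, 4.01 and 11.2 FPKM under olanzapine. Its groups did not overlap, and the log2 fold change of -1.86 had a standard error of 0.44 and a limma adjusted p of 0.145.

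Of 19 other proteases and inhibitors of the matrix 14 were tested, 8 of them below 0 with a median of -0.09. None passed in limma, 1 had an unadjusted p under 0.05, and the Poisson test called Serpine2 lower and Bsg, basigin, an inducer of metalloproteinases, higher. Serpine2, protease nexin 1, had a log2 fold change of -0.68 and a limma adjusted p of 0.237. Plau, urokinase, had one of 0.53 and an adjusted p of 0.399, and without vehicle rats 3 and 11 its value was 0.31 and 0.75.

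Markers of other cells were read for their sums in each group. The 8 tendon markers summed to 88.2, 162 and 433 FPKM in vehicle rats 3, 9 and 11, and to 103, 94.98 and 129 FPKM in olanzapine rats 4, 10 and 12. These sums had the vehicle order of the collagens, as had 4 of the 6 tested tendon markers, where 17.1% of all tested genes had it. Scx and Kera did not, with vehicle rat 9 the lowest vehicle rat in both. Tnmd, tenomodulin, was at 4.03, 10.9 and 29.8 FPKM under vehicle and at 3.71 to 8.26 FPKM under olanzapine, and no tendon marker was at 0 in every rat. The 12 fibroblast markers summed to 75.1, 122 and 134 FPKM and to 113, 84.6 and 91.2 FPKM, with Tcf21, Ly6c and Cd248 listed at 0 in every rat. The fibroblast sums had the same vehicle order, as had 7 of the 8 tested fibroblast markers. This order was not particular to tendon and fibroblast markers. The 9 macrophage markers summed to 55.6, 73.1 and 94.1 FPKM and to 95.9, 71.7 and 109 FPKM. Their sums had the same vehicle order, as had 5 of the 8 tested macrophage markers. The part of the tendon, fibroblast and macrophage markers in the levels of the collagens was not tested.

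Of the other marker lists, blood was the lowest in vehicle rat 3, with 1725 FPKM against 13873 and 7250 FPKM in vehicle rats 9 and 11 and 4639 to 9605 FPKM under olanzapine. Skeletal muscle fiber markers were the list whose sums did not overlap between the groups, at 91626 to 117489 FPKM under vehicle and 120388 to 167222 FPKM under olanzapine. The highest vehicle and lowest olanzapine sums lay close together. In that list the fast fiber genes Mylpf, Tnnt3 and Tnni2 were higher in every olanzapine rat, where 5.12% of all tested genes were. Acta1, Ckm, Myh4 and Des overlapped between the groups. Mylpf alone had means of 15708 FPKM under vehicle and 38303 FPKM under olanzapine. Endothelial markers summed to 106 to 124 and 75.6 to 128 FPKM, and smooth muscle and pericyte markers to 164 to 218 and 153 to 166 FPKM. Neutrophil markers were at 3.65 to 12.6 and 1.81 to 12.3 FPKM, adipocyte markers at 264 to 433 and 246 to 794 FPKM, Schwann cell markers at 37.4 to 59.9 and 34.96 to 48.8 FPKM and satellite cell markers at 8.84 to 10.3 and 7.52 to 9.14 FPKM. Their part in the fall of Ctgf was not tested.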

How the data were processed

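Gastrocnemius RNA of 6 rats was sequenced, 3 per group, and each rat is a replicate. The authors aligned single-end reads of 50 cycles to Rn5 with TopHat 2.0.9 after CASAVA 1.8.2 and then used Cufflinks 2.2.1 on the uniquely mapped reads to give each Ensembl gene its FPKM, so the deposited FPKM are scaled for length and depth, read numbers are not known from them and reads shared by near-identical genes are missing. The library kit does not mark strand, so reads of a gene and of an overlapping antisense gene cannot be told apart. The deposited table also holds the authors' group comparison columns (fold changes and p-values), which were not used.

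Members were matched by symbol, ignoring case, and 93 rows gave 91 members after second rows of 2 symbols, both at 0, were dropped. limma 3.58.1 in R 4.3.3 (lmFit, eBayes with a variance trend) was fitted to log2(FPKM + 1) of the 10285 genes whose mean reached 1 FPKM, with Benjamini-Hochberg adjustment over all of them and a threshold of 0.05. This was used in place of a likelihood ratio test because FPKM are not counts. Fold changes on this scale understate those of low genes. The fit was tested on simulated data. Relative depth came from the lowest steps of FPKM.

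Named members were those at an adjusted p under 0.05, the 10 with the largest log2 fold change, the 2 with the highest mean in each role, and any with groups that did not overlap and a log2 difference of at least 0.58. In each of the other lists the 2 largest changes were named, except for an item that is not reported here. A few further members were named after their values were seen. The members and lists were chosen with earlier results of these data known. Alternatives were pseudocounts of 0.1 and 10, no filter or a mean of at least 10 FPKM, genes at 0 in any rat left out, median-ratio size factors, equal totals, no variance trend, array quality weights, the Poisson test and leaving out each rat. The counts of vehicle orders were also run under both scalings, chosen after seeing the data. Promoters were RefSeq sequences of GRCr8, matched by symbol and used for sequence only. With 3 rats a group, the precision is set by the spread between rats, and the depth behind each value is unknown.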

Additional observations from a re-analysis of the deposited data

How the results depend on the processing

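The count of members called was 12 with the Poisson test, 0 with no filter on low values and 0 to 1 with a rat left out. It stayed at 1, Ctgf, under the other alternatives. Over the 15 limma alternatives of the 31 named members, 450 values in all, 418 kept direction and side of the threshold, 26 changed sign and 6 lost significance, all 6 of them of Ctgf. The named members other than Ctgf did not pass in the main fit, so staying on that side says little about their stability. All alternatives use the same 6 rats or a part of them. The Poisson test gave Mmp14 -0.22 and Nid2 -0.12, a pseudocount of 10 gave Mmp14 -0.0048 and Nid2 -0.012, equal totals gave Nid2 -0.029, and median-ratio size factors gave Dcn 0.11 and Timp3 0.053. The Poisson values are log2 ratios of group sums of FPKM, with the olanzapine sums scaled to the vehicle total and 1 then added to each sum. Those of limma are differences between means of log2 values. Mean FPKM under olanzapine and vehicle was 13.6 and 15.4 for Mmp14, and 3.57 and 3.76 for Nid2. The cause of the other changes of sign was not tested.

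With each rat left out, log2 fold changes that changed sign ran over the ranges Bgn -0.92 to 0.11, Col14a1 -1.01 to 0.060, Col18a1 -0.68 to 0.074, Col1a1 -1.56 to 0.22, Col3a1 -1.07 to 0.29, Col6a1 -0.95 to 0.047, Col6a2 -0.74 to 0.15, Col8a1 -0.45 to 0.14, Dcn -0.18 to 0.10, FN1 -1.33 to 0.35, Lox -0.60 to 0.24, Mmp14 -0.42 to 0.67, Mmp2 -0.74 to 0.17, Nid2 -0.28 to 0.28, Sparc -0.70 to 0.050, Timp2 -0.17 to 0.40 and Timp3 -0.34 to 0.16. The sign changed without vehicle rat 11 in most of them. Among the other lists, the elastic fiber and proteoglycan list had 0 to 1 call with a rat left out, the 1 being Comp without vehicle rat 3. The median of the members ran from -0.79 without vehicle rat 3 to 0.04 without vehicle rat 11, and the log2 ratio of the summed fibrillar collagens from -1.35 to -0.23, shifts no larger than the wide spread between rats. In limma the other 3 lists had no call under any alternative.

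No paired analysis was possible because the groups share no replicate number. A group of 3 rats leaves wide intervals, and without a read count the error of each value at low FPKM is not known. The depth of the shallowest library was 0.441 of the deepest.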
